A study of Mus musculus with 4 samples.

Results

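Naive-like CD8 T cells of the mouse heart were chosen by their UMI sums, a UMI being one counted RNA molecule. A cell was a member when Cd3e, Cd3d and Cd3g summed to at least 2 UMIs, Cd8a and Cd8b1 to at least 2, the B cell genes Cd79a, Cd79b and Ms4a1 to at most 2, the macrophage genes C1qa, C1qb and C1qc to at most 4, the NK cell gene Ncr1 to 0, and the cytotoxic T cell genes Ccl5 and Nkg7 to at most 3. This rule found 235 of 11148 cells with a mouse of origin (2.11%). They were 44.9% of the 523 T cells that passed the Cd8 gate. The rule read only these genes, so their levels are given as descriptions and without a test.

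The cells came from the left ventricle of C57Bl6J mice, either sham controls or mice given DOCA-salt, a hypertension model that combines the mineralocorticoid deoxycorticosterone acetate with salt. There were 4 mice in each group, and their ages and the length of treatment are not given in the sources used here. Cells bearing CD45, the surface protein of leukocytes, were enriched and sorted, stained with hashtag antibodies that mark the mouse and with 16 antibodies to surface proteins, and read by 5′ single-cell sequencing. All mice of a group share 1 library, so treatment and library cannot be told apart in any comparison below.

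A CD8 T cell carries a receptor that reads peptides on MHC class I, and the CD8 coreceptor, a pair of CD8a and CD8b chains, binds the same molecule. Before it meets its antigen it is naive: it recirculates between blood and lymphoid organs using CCR7, survives on signals from the interleukin-7 receptor, and is held at rest by transcription factors such as TCF1 and LEF1 and by proteins that block division and destroy growth-promoting messenger RNA. After antigen it becomes an effector or memory cell, gains CD44 and cytotoxic genes and can settle in tissues such as the heart.

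The sham mice gave 19, 18, 10 and 31 members, and the DOCA-salt mice 38, 44, 29 and 46. Summed over members, a mouse gave from 40678 UMIs (sham 3) to 267932 (DOCA-salt 2), and the median member held 4846.5 UMIs in the sham library and 5717 in the DOCA-salt library. Scrublet called 2 members doublets, both in DOCA-salt mice. Of the barcodes with a mouse, 38 occur in both libraries, and 2 members carry such a barcode. Values per mouse are CPM, a gene's share of all UMIs of the mouse's summed members on the usual fixed scale, which compares mice for 1 gene and not 1 gene with another.

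The label was checked first on its markers. Cd8b1, the CD8 beta chain, ran from 1403 to 1766 CPM over the 8 mice and had a UMI in 99.1% of members. Cd8a, the alpha chain, ran from 404 to 575 CPM and was seen in 88.1%. Both chains are part of the rule. The other markers were free to vary: Lef1, the transcription factor of resting T cells, was found in 93.6% of members (89.7% to 96.4%) and Dapl1, a naive CD8 T cell gene of uncertain function, in 57.4% (50.9% to 63.9%). Brackets after a share of cells hold its 95% interval by the Clopper-Pearson method, which reflects counting error alone. In B cells of the same hearts, which should lack all of these, a UMI was found in 0.9% for Cd8b1, 0.6% for Cd8a, 2.8% for Lef1 and 0.6% for Dapl1, at a median of 2693 (sham) and 2996 (DOCA-salt) UMIs per cell. Thinned to 1000 UMIs a cell, Dapl1 was seen in 21.8% of members and 0.2% of B cells.

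Other genes of naive T cells, none of them in the rule, were found in most members. Ccr7, the chemokine receptor for entry into lymph nodes, had a UMI in 96.2%, Il7r, the interleukin-7 receptor, in 92.8%, Tcf7, which encodes TCF1, in 86.0%, and Klf2, a factor that keeps recirculation genes on, in 99.1%. In B cells Ccr7 and Klf2 were common too (65.3% and 94.1%), while Tcf7 (1.3%) and Il7r (1.7%) were close to absent. Thinned to 1000 UMIs, Tcf7 was seen in 35.0% of members and 0.4% of B cells, and Il7r in 58.1% and 0.8%. Other T cells shared such genes. Of 10 naive T cell genes the median member had a UMI of 8. So did the median CD4 T cell and the median CD8 T cell with at least 4 Ccl5 and Nkg7 UMIs. At least 5 of the 10 were found in 98.7% of members, 92.0% of those CD4 and 69.1% of those CD8 T cells.

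The surface antibodies, which the rule did not read, gave the same assignment to the CD8 lineage. The median CD8a antibody count per member ran from 1592 to 2757 over the mice. It ran from 14 to 30 in CD4 T cells (251 cells that passed the other gates with a Cd4 UMI and no Cd8 or Foxp3 UMI) and from 13 to 22 in B cells. The CD4 antibody showed the reverse, with medians of 11 to 29 on members against 2128 to 2822 on CD4 T cells. T cells with 1 Cd8 UMI, just outside the Cd8 gate, had a median of 31 CD8a and 2537 CD4 antibody counts (47 cells). Those with exactly 2, just inside it, had 1194 and 28 (7 cells).

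CD44, the adhesion receptor that rises on antigen-experienced T cells, was lower in all 8 mice on members than on memory-like cells, the 288 CD8 T cells with at least 4 Ccl5 and Nkg7 UMIs. Median CD44 counts on members were 397, 588.5, 332.5 and 355 in sham mice and 487, 312, 264 and 240 in DOCA-salt mice. On memory-like cells they were 1082, 1253, 998 and 1637, and 1355, 1020, 501.5 and 902.5. The members are not uniform, since 31 of them (13.2%) had over 1000 CD44 counts, against 51.4% of memory-like cells. These 31 held Lef1 in 80.6% and Ccr7 in 87.1% of cells, and S100a4, a calcium-binding protein of memory T cells, in 22.6%. The 204 others held them in 95.6%, 97.5% and 2.94%.

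The limit at 3 Ccl5 and Nkg7 UMIs did not fall at a step in the data. Median CD44 counts were 305, 320, 351 and 345 in cells with 0, 1, 2 and 3 of these UMIs. The 44 cells just outside, with 4, had 290.5, held Lef1 in 88.6% and Dapl1 in 65.9%, which is close to the members with 3. At 5 UMIs (31 cells) the CD44 median was 554, and at 6 or more (213 cells) it was 1413. Cells with more of these UMIs were also deeper, from a median of 4875.5 RNA UMIs at 0 to 6165 at 6 or more. Cxcr3, a chemokine receptor of effector and memory cells, was found in 1.59% of cells at 3 UMIs, 6.82% at 4 and 47.4% at 6 or more.

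**Figure D1:**
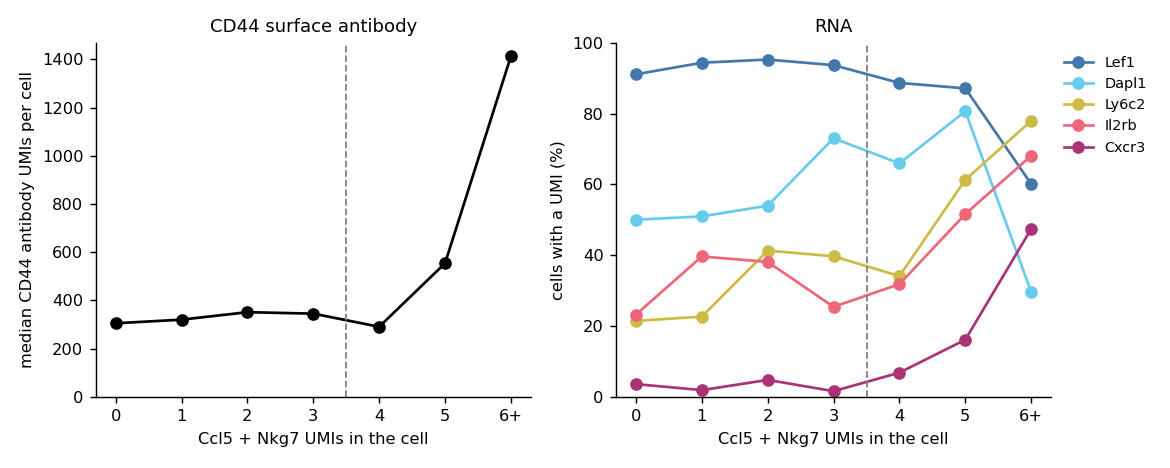
Median CD44 antibody count per cell (left) and percent of cells with a UMI of Lef1, Dapl1, Ly6c2, Il2rb and Cxcr3 (right) in Cd8-gated T cells, by the cell's Ccl5 and Nkg7 UMIs; the dashed line is the limit of the rule. CD44 stays between 290.5 and 351 up to 4 UMIs and reaches 1413 at 6 or more, where Lef1 and Dapl1 are less often seen.

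Several effector genes were near or at 0 in members, while Nkg7 and Klrd1 were found in most of them. Gzmk and Gzmm, which encode granzymes, and Ifng, which encodes interferon gamma, had no UMI in 235 members, which allows a share of up to 1.28% of cells with a UMI (a limit of 3 counts over 235 cells). Gzmb was found in 0.4%, Tbx21, the factor of effector differentiation, in 0.4% and Eomes, its relative in memory cells, in 4.3%, beside 2.2%, 1.9% and 1.1% of B cells. In memory-like cells Gzmk, Gzmb, Tbx21 and Eomes were found in 21.5%, 20.1%, 23.3% and 22.2%. Ccl5 and Nkg7, which the rule limits, were seen in 6.8% and 74.9% of members and in 7.7% and 3.8% of B cells. Klrd1, which encodes the NK receptor CD94, was found in 62.1% of members, 68.1% of memory-like cells, 12.7% of CD4 T cells and 2.6% of B cells. At 1000 UMIs a cell its shares were 19.7% in members and 20.9% in memory-like cells. Klrd1 was thus found in most members, and Gzmk, Gzmm and Gzmb in almost none.

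Some memory-associated genes were present at a lower level. Ly6c2, a surface protein of memory and interferon-exposed CD8 T cells, was found in 31.9% of members and 69.4% of memory-like cells, against 2.0% of CD4 T cells and 4.2% of B cells. Per mouse it was found in 21.1%, 38.9%, 30.0% and 25.8% of sham members and in 42.1%, 38.6%, 27.6% and 26.1% of DOCA-salt members. The groups overlapped. Members with Ly6c2 held Dapl1 in 74.7% of cells and members without it in 49.4%, with median depths of 6044 and 5003.5 UMIs, so the cells with more of both were also the deeper ones. Il2rb, the receptor chain for interleukin-2 and interleukin-15, was found in 31.5% of members and 60.8% of memory-like cells. Ccr9, a gut-homing receptor, and Itgae, an integrin that binds epithelium, were listed here with naive T cell homing genes and not with memory genes. They were found in 23.4% and 14.5% of members, and in 0% and 0.4% of CD4 T cells.

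Levels against the 2 nearest classes are given as descriptions, since the rule set the classes apart. Lef1 averaged 557 CPM over the 8 mice in members (452 to 714), 286 in memory-like cells and 650 in CD4 T cells. Tcf7 averaged 421 CPM in members (341 to 590.0), 318 in memory-like cells and 543 in CD4 T cells. For Igfbp4, a binding protein of insulin-like growth factors found in naive T cells, the means were 526 CPM in members, 358 in memory-like cells and 1336 in CD4 T cells. Satb1, a chromatin organiser of T cells, averaged 215, 123 and 360 CPM in the same order. The mean of Dapl1 was highest in members, at 313 CPM (208 to 430) against 219 and 208. Members thus lay between memory-like CD8 and CD4 T cells for Lef1, Tcf7, Igfbp4 and Satb1, and above both for Dapl1.

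RNA of some other cell types was spread over most members, and the highest values came mainly from single cells. The 10 B cell markers, which the rule limits in part, had 1915 UMIs in 226 members. Summed, they ran from 1276 to 1500 CPM in 3 sham mice and from 766 to 1130 CPM in DOCA-salt mice. Sham 2 had 7693 CPM, where 1 member held 653 of 724 such UMIs. Of 6 NK cell markers, Ncr1 was held at 0 by the rule, Klre1 had no UMI and the other 4 had 341 UMIs in 90 members, from 62.4 to 425 CPM in the sham and from 83.8 to 496 CPM in the DOCA-salt group. DOCA-salt 2 was the highest, where 1 member held 77 of 133 such UMIs. Of 6 gamma-delta T cell markers 5 had no UMI, Trdc among them, and the list had 2 UMIs in all. Of 5 thymocyte markers Rag1, Rag2 and Ptcra had no UMI, and the list had 23 UMIs in all. The summed 4 CD4 T cell markers ran from 0 to 115 CPM in the sham and from 5.99 to 43.8 CPM in the DOCA-salt mice. The 9 macrophage markers had 986 UMIs in 189 members. Summed, they ran from 395 to 541 CPM in 3 sham mice and from 347 to 516 CPM in 3 DOCA-salt mice. Sham 2 (3156 CPM) and DOCA-salt 2 (1153 CPM) were above them. In sham 2, 271 of the 297 macrophage UMIs sat in 1 member of 13050 UMIs. The neutrophil markers were at 23.9 to 44.8 CPM in 3 DOCA-salt mice and at 2032 CPM in DOCA-salt 4, where 1 member held 506 of 511 such UMIs. Haemoglobin genes had 14 UMIs in all, from 27.7 to 53.1 CPM in sham mice and 0 in every DOCA-salt mouse. Their part in the differences below was not tested, apart from leaving out 5 members rich in class II or Lyz2 UMIs.

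The members used many V segments of the T cell receptor, the part of the receptor chain that recombination picks in each cell. A beta-chain V segment could be assigned in 202 members, and 21 segments were seen. The most frequent, Trbv13-1 and Trbv13-2, had 19 cells each (9.4%, 5.8% to 14.3%). No segment had more than 6 cells in any mouse. The effective number of segments (the inverse of the summed squared shares) was 16.3 in members, 14.1 in memory-like cells (260 assigned) and 13.9 in CD4 T cells (225 assigned). In memory-like cells of DOCA-salt 4, Trbv12-1 alone had 16 of 95 cells. That is a share similar to the 6 of 37 members of DOCA-salt 2 with Trbv13-1. Alpha-chain segments were assigned in 101 members, with 40 seen and Trav19 the most frequent at 7 cells. V segments resemble one another and may share reads, and no clonotype sequences were used.

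The share of these cells among leukocytes was not shown to differ between the groups. Members were 1.93%, 1.48%, 1.59% and 2.40% of assigned cells in sham mice and 1.72%, 2.30%, 3.72% and 2.16% in DOCA-salt mice. The groups overlapped, and their means were 1.85% ± 0.414 and 2.48% ± 0.868 (SD, n = 4 each; two-sided exact permutation p = 0.257, adjusted over 3 shares 0.386). B cells are the largest class, and with them left out of the denominator the means were 4.94% and 4.77%, a difference of the other sign. Among Cd3-gated T cells members made up 21.6% ± 3.04 in sham and 19.6% ± 4.19 in DOCA-salt mice (SD, n = 4 each; exact permutation p = 0.429, adjusted 0.429).

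Among Cd8-gated T cells the members' share was lower in DOCA-salt mice. It was 59.4%, 56.3%, 52.6% and 65.96% in sham mice and 40.9%, 48.4%, 47.5% and 31.1% in DOCA-salt mice. Every DOCA-salt mouse lay below every sham mouse, and the means were 58.6% ± 5.65 and 42.0% ± 7.99 (SD, n = 4 each; exact permutation p = 0.0286, the smallest the design allows, adjusted p = 0.0857), so the difference did not pass after adjustment. With 4 mice a group and adjustment over 3 shares, a single share could not have passed. The limit on Ccl5 and Nkg7 depends on depth, which was higher in the DOCA-salt library. With every cell thinned to 1000 UMIs before the gates, the shares were 71.4%, 77.8%, 75% and 87.1% in sham and 55.9%, 71.4%, 89.5% and 63.4% in DOCA-salt mice. The groups then overlapped, with means of 77.8% and 70.1% (exact permutation p = 0.4, n = 4 each). The limit of 3 UMIs was kept at the lower depth, so a larger part of the Cd8-gated cells fell under it. The thinned class is therefore a looser one, and the part of depth in the difference was not tested.

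**Figure D2:**
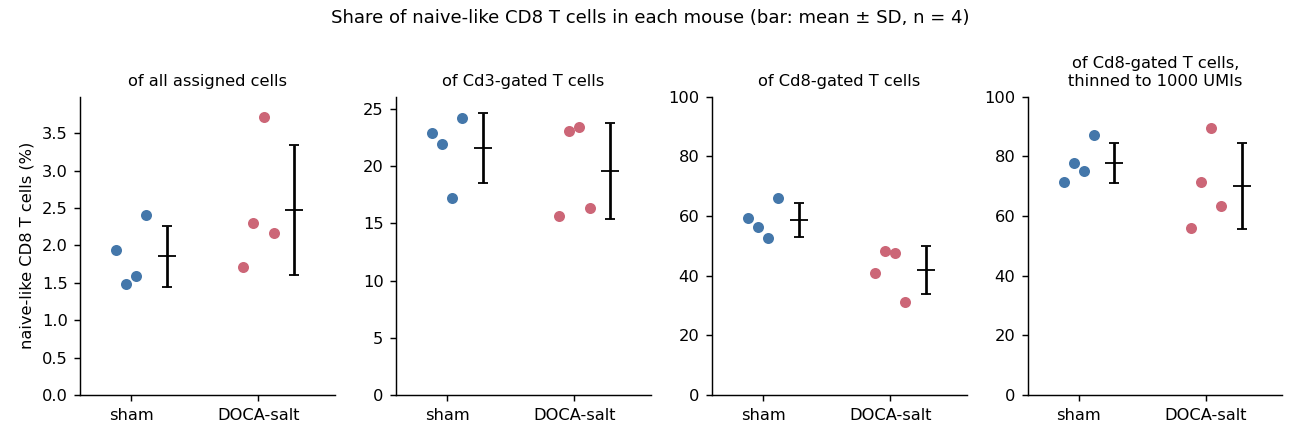
Percent of naive-like CD8 T cells in each of 4 sham and 4 DOCA-salt mice (points), with mean ± SD, of all assigned cells, of Cd3-gated T cells, of Cd8-gated T cells, and of Cd8-gated T cells after thinning to 1000 UMIs. The groups are apart only in the third panel (58.6% and 42.0%), and overlap in the fourth (77.8% and 70.1%).

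RNA of the members was then compared between the groups, on counts summed per mouse with edgeR's quasi-likelihood test and Benjamini-Hochberg adjustment. Of 1747 genes tested, 7 passed the threshold of adjusted p 0.05 (0.401%), all of them lower in DOCA-salt mice (0.401% called lower), and 0 were higher. At an unadjusted p under 0.05 there were 154 genes, and DESeq2 also called 7, of which 5 were shared. The called genes were Malat1, Btg1, Txnip, Zfp36l2, Psmb9, H2-Eb1 and Rpl35a. They are a nuclear noncoding RNA, 3 genes of the quiescence and mRNA decay list, an immunoproteasome subunit, an MHC class II chain and a ribosomal protein.

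Malat1 (ENSMUSG00000092341, chromosome 19, 5795690 to 5802672, minus strand, GRCm38), a long noncoding RNA kept in the nucleus, stood at 7781, 6056, 6810 and 5823 CPM in sham mice and at 3604, 3508, 3119 and 3643 CPM in DOCA-salt mice. All DOCA-salt mice were below all sham mice. The log2 change was -0.91 ± 0.09 (SE, edgeR adjusted p = 7.59e-06), and of the 7 it was the only one called in all 22 alternatives tried. The median mitochondrial share of a member's UMIs was 2.19% in sham and 2.29% in DOCA-salt cells. With each member thinned to 1000 UMIs the Malat1 change was -0.84 (edgeR adjusted p = 3.92e-05). The part of RNA quality in this difference was not tested.

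Btg1 (chromosome 10, 96617006 to 96622809, plus strand) encodes an antiproliferative protein that shortens the poly(A) tails of messenger RNA in resting T cells. It measured 1628, 2274, 2016 and 2024 CPM in the sham group and 1282, 1146, 946 and 1265 CPM in the DOCA-salt group, without overlap (log2 change -0.76 ± 0.11 SE, edgeR adjusted p = 0.00182). Txnip (chromosome 3, 96557957 to 96561883, plus strand), which binds thioredoxin and restrains glucose uptake, measured 623, 850.0, 688 and 797 CPM in the sham group and 415, 452, 323 and 442 CPM in the DOCA-salt group (log2 change -0.84 ± 0.14 SE, edgeR adjusted p = 0.00765). Zfp36l2 (chromosome 17, 84183931 to 84187947, minus strand), a protein that binds AU-rich messages and has them degraded, measured 266, 446, 418 and 326 CPM and 187, 175, 192 and 195 CPM (log2 change -0.91 ± 0.18 SE, edgeR adjusted p = 0.0202). For these genes too the DOCA-salt mice were all below the sham mice. The Zfp36l2 call was lost without sham 2 (edgeR adjusted p = 0.148) and without DOCA-salt 1, 2 or 4 (0.0683 to 0.0898).

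Psmb9 (chromosome 17, 34181987 to 34187764, minus strand), an immunoproteasome subunit that shapes peptides for MHC class I, measured 312, 319, 221 and 208 CPM in the sham group and 114, 131, 156 and 135 CPM in the DOCA-salt group. The groups did not overlap (log2 change -0.97 ± 0.21 SE, edgeR adjusted p = 0.0412). The call was lost in 9 of the 20 alternatives that measured Psmb9, among them the leaving out of sham 1 or sham 2, with edgeR adjusted p of 0.169 and 0.17, and of DOCA-salt 1, 2 or 4 (0.0902 to 0.111). Rpl35a (chromosome 16, 33056453 to 33060189, plus strand), a protein of the large ribosomal subunit, measured 6304, 5546, 6121 and 6163 CPM and 4608, 4811, 4778 and 4403 CPM. Its log2 change was -0.36 ± 0.07 (SE, edgeR adjusted p = 0.0202), and the call was lost in 8 of 22 alternatives, among them without sham 1, 3 or 4 or DOCA-salt 1 or 4 (0.0504 to 0.11). Of the 80 cytosolic ribosomal protein genes tested, 67 had a change above 0 and 13, Rpl35a among them, below 0, and the median was 0.09.

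**Figure D3:**
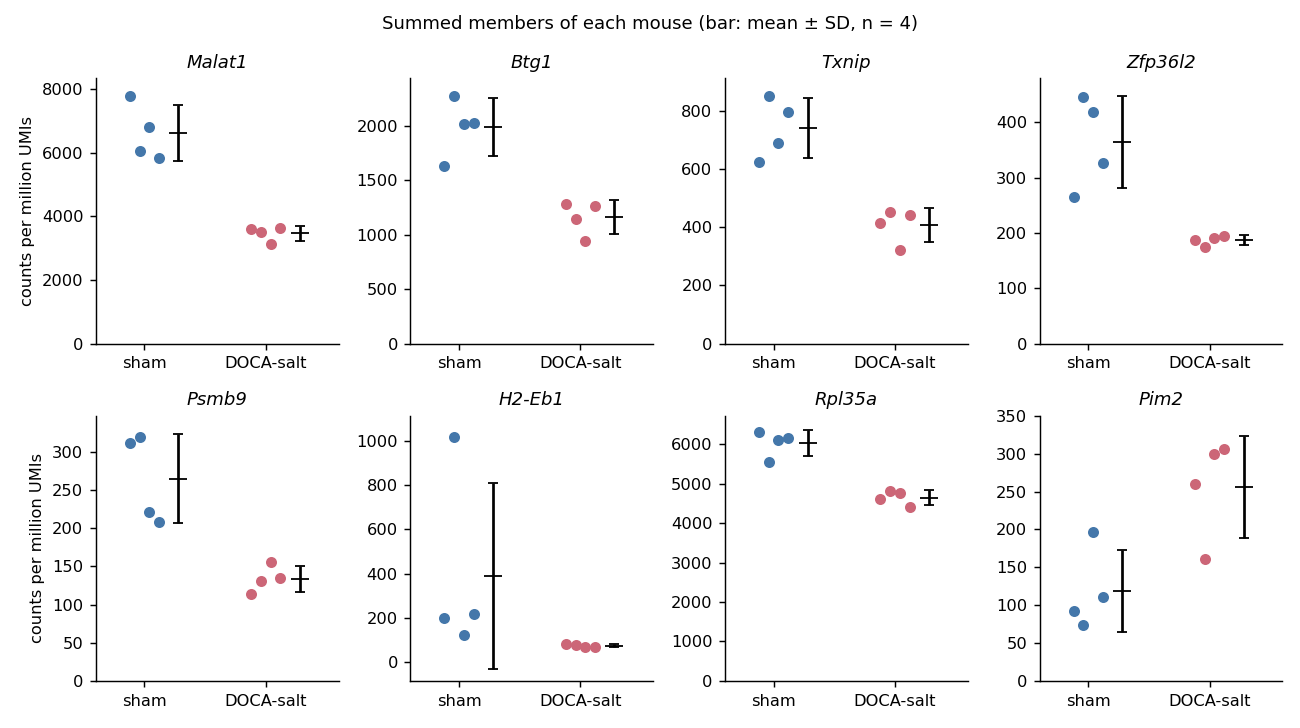
CPM of the summed members in each mouse (points), with mean ± SD, for the 7 called genes and for Pim2, which did not pass. For each called gene the 4 DOCA-salt points lie below the 4 sham points; for H2-Eb1 the sham spread is set by sham 2 (1020.0 CPM).

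H2-Eb1 (chromosome 17, 34305867 to 34316674, plus strand), a chain of MHC class II that T cells of the mouse do not make in quantity, measured 196, 1020.0, 123 and 215 CPM in the sham group and 82.1, 74.6, 65.9 and 67.6 CPM in the DOCA-salt group. Sham 2 stood far above the other mice, and the DOCA-salt mice were below all sham mice. The log2 change was -2.46 ± 0.46 (SE, edgeR adjusted p = 0.0182). In sham 2, 1 member held 94 of the 96 H2-Eb1 UMIs, together with 403 Cd74, 159 Lyz2 and 83 Apoe UMIs. With the 5 members of over 20 class II or Lyz2 UMIs left out, the change was -0.86 with an edgeR adjusted p of 0.41, and with a hashtag margin of 5 it was -1.10 with 0.166. Those 5 members were picked by class II UMIs, so that value describes the other cells and is no independent test. Without sham 2 the H2-Eb1 change was -1.39 and still passed (edgeR adjusted p = 0.00934). The summed B cell markers, which include class II genes, moved the same way, from 1276 to 1500 CPM in 3 sham mice, 7693 CPM in sham 2 and 766 to 1130 CPM in DOCA-salt mice. H2-Aa, the alpha chain of another class II molecule, measured 150, 1201, 246 and 153 CPM and 114, 70.9, 95.8 and 107 CPM, and did not pass (edgeR adjusted p = 0.08).

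Leaving out these 5 members gave 11 called genes, 4 of them higher, and 6 of the first 7 were among them. Pim2, Lgals1, Apoe and mt-Co1 were higher, and Tsc22d3 was added among the lower. This alternative, and the naming of mt-Co1, were chosen after the values were seen. Apoe, a lipid carrier made by macrophages, then had a log2 change of 1.87 (edgeR adjusted p = 0.0349), the other sign from its -1.04 over all members. One of the members left out held 83 of the 85 Apoe UMIs of sham 2. The Apoe value therefore describes the other cells and is no independent test. In B cells Apoe had 0.55 (edgeR adjusted p = 0.0363). It had 0.82 in memory-like and -0.007 in CD4 T cells, neither past the test.

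Among genes that hold T cells at rest, 3 were called lower. Of 15 genes in the quiescence and mRNA decay list 12 were tested and 3 passed (Btg1, Txnip and Zfp36l2), where 0.401% of all genes were called lower. In the list 8 had a change below 0, beside 846 of 1747 over all genes, and the median log2 change was -0.45, beside 0.01. In 5 of the 12 all DOCA-salt mice lay below all sham mice, against 3.03% of all genes tested. This list and those below were chosen with earlier results of these data known. The counts therefore describe the lists and are no independent test. The 2 that did not pass were Tsc22d3, a glucocorticoid-induced leucine zipper, and Cdkn1b, the cell cycle inhibitor p27, the latter named after its values were seen and with a log2 change of -0.62 (edgeR adjusted p = 0.374). Tsc22d3 measured 808, 1063, 1008 and 1234 CPM in the sham group and 757, 698, 754 and 660.3 CPM in the DOCA-salt group (log2 change -0.52 ± 0.13 SE, edgeR adjusted p = 0.0969). Pdcd4, an inhibitor of translation, had -0.63 (edgeR adjusted p = 0.283). Zfp36 and Zfp36l1, relatives of Zfp36l2 named after their values were seen, had 0.38 and 0.22, neither past the test.

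No gene of the cytokine receptor and survival list passed the test. Of 19 genes in the list 11 were tested, 7 had a change above 0 and 4 below, beside 901 of 1747 above 0 over all genes, and the median was 0.62. The kinase gene Pim2 measured 92.4, 74.4, 197 and 111 CPM in the sham group and 260.0, 160.5, 299 and 306 CPM in the DOCA-salt group. Only sham 3 reached into the DOCA-salt range. Its log2 change was 1.25 ± 0.28 (SE, edgeR adjusted p = 0.059), and in 6 of 20 alternatives it passed, including the one without sham 3. Myc, the growth regulator, measured 57.7, 85.0, 123 and 41.6 CPM and 146, 138, 156 and 111 CPM (log2 change 1.05, edgeR adjusted p = 0.134). Socs3, a feedback inhibitor of cytokine signalling, and Pim1, a relative of Pim2, had 1.37 and 0.73 (edgeR adjusted p = 0.342 and 0.464). Pim1 was highest in sham 3 (492 CPM) and DOCA-salt 3 (425 CPM) and lay between 127 and 269 CPM in the other mice.

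Bcl2, which blocks programmed cell death and is named after its values were seen, measured 323, 223, 393 and 402 CPM in the sham group and 429, 496, 581 and 529 CPM in the DOCA-salt group. It was the only gene of the list with all DOCA-salt mice above all sham mice, as 2.92% of all genes tested were. Its log2 change was 0.62 ± 0.18 (SE, edgeR adjusted p = 0.156). Il7r, one of the receptors, had a log2 change of -0.17 and did not pass.

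**Figure D4:**
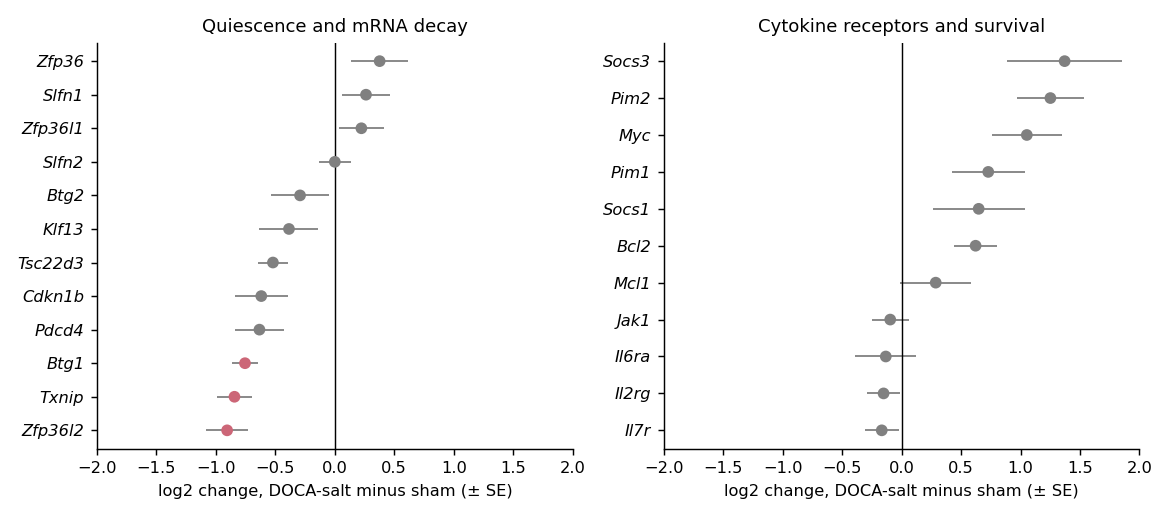
Log2 change (DOCA-salt minus sham, ± SE) of every tested gene of the quiescence and mRNA decay list (left) and of the cytokine receptor and survival list (right); red marks an adjusted p under 0.05. Zfp36l2, Txnip and Btg1 passed at the low end of the left list, and Socs3, Pim2 and Myc lie highest in the right list without passing.

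The genes of naive identity gave no call. In the list of naive T cell transcription factors 10 of 13 were tested, 7 had a change below 0, and the median was -0.14. Lef1 measured 693, 584, 467 and 714 CPM in the sham group and 452, 579, 473 and 497 CPM in the DOCA-salt group, with overlap (log2 change -0.32 ± 0.15 SE, edgeR adjusted p = 0.535). Tcf7 and Foxo1, a factor that drives Il7r, had -0.34 and -0.51. Among other naive genes 11 of 14 were tested with a median of 0.26. Dapl1 measured 208, 287, 295 and 256 CPM in the sham group and 333, 340, 359 and 430 CPM in the DOCA-salt group, all above the sham mice (log2 change 0.52 ± 0.17 SE, edgeR adjusted p = 0.26). In the members with no Ccl5 or Nkg7 UMI its log2 change was -0.52. Tdrp, of little-known function, went the other way, with 219, 159, 148 and 159 CPM against 100.4, 93.3, 89.8 and 131 CPM (log2 change -0.70, edgeR adjusted p = 0.26). Homing and egress genes had a median of -0.01 over 7 tested, with Gpr183, a receptor for oxysterols, at -0.54 and S1pr1, the receptor for exit from lymphoid organs, at -0.11, a sign that turned without sham 4.

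Genes of the receptor complex and of stimulation gave no call. Outside the rule 13 receptor complex and CD8 genes were tested, with a median of -0.10, and Ptprc, which encodes CD45, was highest at 0.36 (edgeR adjusted p = 0.442). Cd8b1 and Cd8a, which the rule used, had 0.04 and 0.05. Only 3 of 20 activation genes were tested: Tnfsf8, the ligand of CD30, had 0.96 (edgeR adjusted p = 0.425), Cd69, an early activation and retention receptor, -0.28 and Nfkbia, an inhibitor of NF-kappaB, -0.22. Early response genes had a median of -0.29 over 13, with the heat shock gene Hspa1a, which may share reads with its copy Hspa1b, lowest at -1.07 (edgeR adjusted p = 0.562). The AP-1 subunit gene Jund measured 750.4, 659, 934 and 534 CPM in the sham group and 415, 321, 497 and 430 CPM in the DOCA-salt group, without overlap (log2 change -0.72 ± 0.18 SE, edgeR adjusted p = 0.0961). Of 13 corticosteroid target genes, 3 were tested, Tsc22d3, Dusp1 and Il7r, all below 0.

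In the interferon, MHC class I, cell cycle and memory lists Psmb9 was the only call. The 10 tested interferon-stimulated genes had a median of -0.01, from Ifi27l2a at -0.60 to Bst2, which encodes tetherin, at 0.55. Of 12 MHC class I genes tested 10 were below 0, and the median was -0.15. Of 13 cell cycle genes 3 could be tested, with Hmgb2, a chromatin protein, at 0.42, and Mki67 had a UMI in 2 members only, 1 of which held 24 of its 34 UMIs. Among memory genes 8 of 35 were tested. Lgals1, which encodes galectin-1, measured 92.4, 170.0, 98.3 and 90.1 CPM in the sham group and 173, 205, 234 and 243 CPM in the DOCA-salt group, without overlap (log2 change 0.94 ± 0.24 SE, edgeR adjusted p = 0.118). Ly6c2 and Il2rb had 0.49 and 0.45.

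Several genes outside the lists were among those with the smallest p that did not pass. Mrpl24, a mitochondrial ribosomal protein, measured 196, 181, 172 and 159 CPM in the sham group and 100.4, 100.8, 77.8 and 83.5 CPM in the DOCA-salt group (log2 change -0.92 ± 0.22 SE, edgeR adjusted p = 0.08). Clint1, a vesicle coat adaptor, had -1.37, Rflnb, an actin regulator, -1.02, Taf10, a subunit of the general transcription machinery, -0.84, and Emb, a membrane glycoprotein, -0.64. Nop10, a small nucleolar ribonucleoprotein, had 0.77. Their edgeR adjusted p were 0.118 to 0.122. Mitochondrially encoded genes lay slightly above 0, with 10 of 12 positive and a median of 0.16.

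The lower Malat1, Btg1, Txnip and Zfp36l2 were found in the neighbouring cells too. Each class was fitted alone on cells of the same mice, and the classes share the 2 libraries. The log2 change of Malat1 was -1.03 in CD4 T cells, -0.88 in memory-like CD8 T cells and -0.75 in B cells, and it passed in each. Btg1 had -0.85, -0.58 and -0.72, Txnip -0.72, -0.81 and -0.46, and Zfp36l2 -0.83, -0.97 and -0.93 in that order. All of these passed in CD4 T and B cells and none of the 3 in memory-like cells (edgeR adjusted p of 0.364, 0.111 and 0.111). Psmb9 had -0.40, -0.33 and -0.26 and passed in none of them. H2-Eb1 had -1.19, -0.56 and -0.10 and passed in none (edgeR adjusted p = 0.0692 in CD4 T cells). The class II genes H2-Aa and Cd74 passed in CD4 T cells, at -1.03 and -0.97 (edgeR adjusted p = 0.0342 and 0.00517). The classes differ in what they can show: 19 of 1388 genes passed in CD4 T cells, 1 of 2993 in memory-like cells and 215 of 9253 in B cells.

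**Figure D5:**
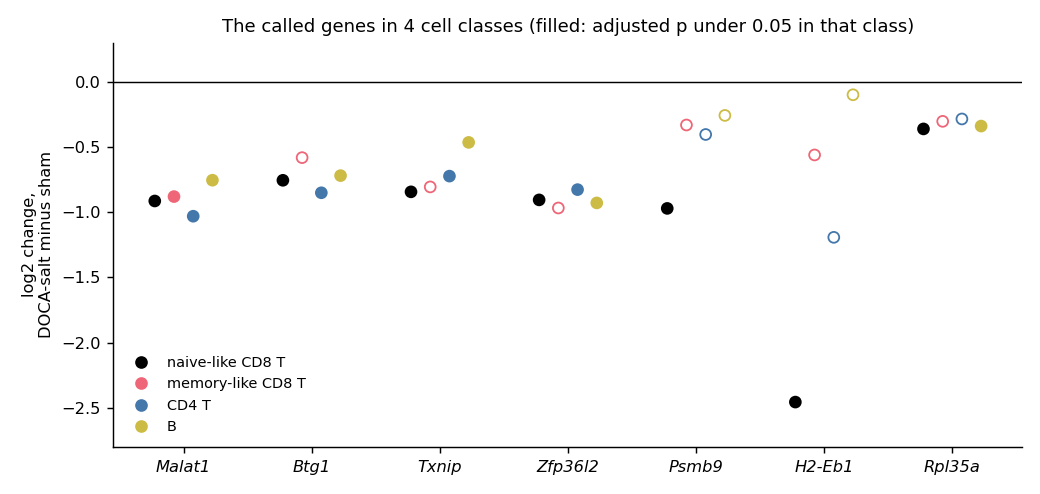
Log2 change (DOCA-salt minus sham) of the 7 called genes in naive-like CD8, memory-like CD8, CD4 T and B cells, each class fitted alone; filled points have an adjusted p under 0.05 in that class. Malat1 is filled in all 4 classes, from -0.75 to -1.03, and Psmb9 and H2-Eb1 are filled only in naive-like CD8 T cells.

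The difference in response between members and the neighbouring T cells was tested directly. In a model with a term for each mouse, 0 of 1893 genes had a different change in members and CD4 T cells (edgeR; 96 at an unadjusted p under 0.05, smallest adjusted p 0.159). Against memory-like CD8 T cells 0 of 3064 did (edgeR; 117 at an unadjusted p under 0.05, smallest adjusted p 0.994). That fit had 7 mice, because sham 3 had 9 memory-like cells. For Psmb9 the difference was -0.53 ± 0.33 from CD4 T cells and -0.67 ± 0.37 from memory-like cells (SE, edgeR adjusted p = 0.98 and 0.994). For H2-Eb1 it was -1.11 ± 0.55 and -2.004 ± 0.49, with the same adjusted p. A p that misses the threshold does not show that the classes respond alike.

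Surface proteins were compared as each antibody's percent of the 16 antibodies' counts, and none of the 16 passed after adjustment (exact permutation tests). With 4 mice a group a single antibody could not have passed, since the smallest p is 0.0286 before adjustment over 16. CD39, an enzyme that breaks down extracellular ATP, took 6.12%, 9.26%, 7.30% and 7.21% in sham mice and 3.13%, 3.07%, 4.47% and 2.85% in DOCA-salt mice. All DOCA-salt mice were below all sham mice (log2 difference -1.15, two-sided exact permutation p = 0.0286, adjusted p = 0.343, n = 4 each). It was lower on B cells of the same mice too, by -0.59, and relative to them the members' difference was -0.56. The nearest classes also had fewer CD39 counts in DOCA-salt cells. The median per cell was 229.5 in sham and 99 in DOCA-salt members. In memory-like CD8 T cells it was 341.5 and 119, and in CD4 T cells 237.5 and 104. These are raw counts pooled over cells, and those of other antibodies were lower too. For CD64 the medians were 224.5 and 101 on members, 264 and 119.5 on memory-like cells and 226.5 and 110 on CD4 T cells. On members they were 149 and 71 for CD80, while for CD8a they were 2336 and 2337. The CD39 medians alone therefore do not set CD39 apart. CD8a took 35.6% to 55.4% in sham and 49.5% to 56.6% in DOCA-salt mice, and CD44 7.70% to 31.8% and 12.5% to 16.8%. Both overlapped (exact permutation p = 0.257 and 0.714, adjusted 0.514 and 0.816, n = 4 each). The CCR7 antibody had a median of 5 counts on members and 4 on B cells, where Ccr7 RNA was found in 96.2% and 65.3% of cells.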

How the data were processed

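The deposited values are whole-number counts of UMIs per gene and of antibody and hashtag tags per cell. The authors made them with Cell Ranger and Seurat 4 on mm10, per the submitters' processing notes, and the matrix headers give software version 3.1.0. Cells needed at least 200 genes, at most 10% mitochondrial UMIs and a top hashtag at least 2 times the second; each hashtag was taken as 1 mouse. Doublet calls (Scrublet in scanpy 1.11.5; 1.25% of sham and 3.31% of DOCA-salt cells) were kept and removed as an alternative. Counts of members were summed per mouse and tested with edgeR 4.0.16 (limma 3.58.1, R 4.3.3; filterByExpr, TMM, quasi-likelihood test, Benjamini-Hochberg threshold 0.05). Shares and antibodies were tested with two-sided exact permutation tests (Python 3.11.15, numpy 2.4.6, scipy 1.17.1), whose smallest p is 0.0286. DESeq2 1.42.0, other scalings, filters and gates, thinning and leaving out each mouse were alternatives. Genes named were the called genes, the 10 uncalled genes of smallest p, the markers and up to 4 genes of each list by size of change. Exceptions are said to be chosen after their values were seen. The members and lists were chosen with earlier results of these data known. Positions are from GENCODE M21 (GRCm38), matched by gene identifier. The scripts were tested on simulated data. There edgeR recovered 52.5% of 61 genes changed 2-fold and 96.8% of 62 genes changed 4-fold. It made 11 false calls among 1710 unchanged genes. Results for 1 gene and 1 antibody are not reported here.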

Additional observations from a re-analysis of the deposited data

Results flagged for a closer look

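In 15 of 166 groups of 4 mice, the highest or lowest mouse stood apart from the other 3 by more than Dixon's critical value at the 95% level. Chance alone would do this in about 1 in 20 groups, and values from 1 mouse are not independent. Sham 2 was high in 9 of them: H2-Eb1 at 1020.0 CPM, H2-Aa at 1201 CPM, Cd74 at 4537 CPM, Lyz2 at 1785 CPM, Apoe at 903 CPM, Lgals1 at 170.0 CPM, Ahnak at 234 CPM, Socs3 at 95.6 CPM and the CD11b antibody at 6.72%. One member of sham 2 held most of the H2-Eb1, H2-Aa, Cd74, Lyz2 and Apoe UMIs of that mouse, and 15 of its 22 Ahnak UMIs.

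Pim1 was high in sham 3 (492 CPM) and in DOCA-salt 3 (425 CPM). Lyz2 was high in DOCA-salt 2 at 784 CPM, and Gbp4, an interferon-induced GTPase, was low there at 18.7 CPM. Trac, the receptor alpha constant region, was high in DOCA-salt 1 at 128 CPM, and Tdrp was high in sham 1 at 219 CPM.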

How the results depend on the processing

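Against 7 genes called, 32 of 11733 were called with no filter on low counts, where the median over all genes shifted to 0.20, 11 with class II-rich or Lyz2-rich members left out, 4 of 314 after thinning, and 1 each with the B cell and C1q genes or with Ccl5 and Nkg7 at 0, where 618 and 327 genes were tested. Leaving out 1 mouse gave 5 to 10. Malat1 kept its call in all 22 alternatives, Btg1 lost it in 2, Txnip in 3, Rpl35a in 8, Zfp36l2 in 6 of 20, Psmb9 in 9 of 20 and H2-Eb1 in 3 of 18. The test against CD4 T cells gave 0 to 1 genes on leaving out a mouse, the 1 without sham 3. The difference in the share of all assigned cells turned to -0.168 percentage points without B cells in the denominator. Other sign changes were in results that did not pass, and for them the cause was not tested. Dapl1 had -0.52 with Ccl5 and Nkg7 at 0. S1pr1 had 0.0455 with no filter and 0.55 with the B cell and C1q genes at 0, where H2-T23 had 0.0540. Ahnak, Apoe and Lyz2 had 0.14, 1.31 and 0.0979 with a hashtag margin of 5, and 0.0509, 1.87 and 0.32 without class II-rich members, the Apoe value passing. Nfkbia had 0.0166 after thinning. On leaving out each mouse, log2 changes ran from -0.53 to 0.0927 for Zap70, -0.65 to 0.16 for Trac, -0.0194 to 0.38 for S1pr4, -0.21 to 0.0944 for S1pr1, -0.00353 to 0.23 for Itga4, -0.90 to 0.23 for Ahnak, -0.420 to 0.0753 for the Nfkbia log2 change, -0.49 to 0.39 for Tnfrsf18, -1.52 to 1.26 for Apoe and -2.01 to 0.94 for Lyz2, and antibody differences from -0.21 to 0.0393 for CD3, -0.0475 to 0.63 for CD44 and -0.22 to 0.17 for CCR7. The CCR7 antibody also had 0.000554 without Cd4 UMIs, 0.0554 without class II-rich members, 0.0123 without doublets, 0.0338 with the hashtag margin of 5 and 0.20 on the centred log ratio, where CD3 had 0.14. Relative to B cells of the same mouse, CCR7, CD8a, CD11c and CD44 antibodies had 0.106, -0.0316, 0.0172 and -0.0600. No paired analysis was made because the sources used here give no pairing of sham and treated mice. With 10 to 46 members a mouse, most activation, effector and cell cycle genes held too few UMIs to be tested.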
